A study of Oreolalax rhodostigmatus with 13 samples.

Results

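The comparison of 30 h of light with darkness set 3 long-term exposed tadpoles of *Oreolalax rhodostigmatus*, the red-spotted toothed toad, against 4 control tadpoles. These are 7 of the 13 RNA-seq libraries of the study, each made from a single wild, transparent tadpole of Gosner stage 25 taken in the dark zone of a cave. Long-term exposed tadpoles lived for 30 h in a cage in the pool at the light-accessible cave entrance, with a fluorescent lamp at night, whereas control tadpoles were killed as soon as they were caught. The other 6 libraries came from tadpoles killed after 4 h at the entrance (short-term exposed), which entered the fit and are given here only beside the 30 h values. The labels give no strain and no treatment other than light. The tissues of a tadpole shared a tube. The methods count eyeballs, liver, skin of the back and a piece of tail, and the labels leave out the tail, so that a value belongs to no single tissue. Of 249088 unigenes (assembled transcripts), the 38864 listed above 0 FPKM in all 13 libraries (15.6%) were tested. FPKM is a read density scaled to transcript length and library size.

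Frog skin takes its colour from several pigment cell types of neural crest origin. Melanophores make melanin from tyrosine, xanthophores hold pteridines and carotenoids, and light and hormones can move pigment granules within these cells or change how many cells and how much pigment there are. The liver and tail muscle carried along in these samples make large amounts of a few transcripts, such as albumin, and therefore weigh heavily in a mixture of tissues.

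The 3 long-term exposed libraries listed 140196 to 147363 unigenes above 0, and the 4 control libraries 112990 to 134725. Summed FPKM was between 983190 and 1070969 in all 13 libraries. The study's sequencing summary gives the long-term exposed libraries the most clean reads, and reads could not be recovered from the rounded FPKM values. Light, depth, time of day and time in the cage changed together between the groups and cannot be told apart. Short-term exposed replicate 5 listed the fewest unigenes, 91929. Of the 56428 unigenes above 0 in all 7 compared libraries, 11367 were at 0 in it, some of them also in other short-term exposed libraries. A filter that leaves replicate 5 out would have admitted 44548 unigenes in place of 38864. Liver and melanophore markers were present in all 7 libraries, with a summed FPKM of 8131 to 12350 after 30 h against 853.2 to 2185 in controls for 6 hepatocyte unigenes, and of 23.96 to 53.48 against 3.0 to 13.18 for 7 melanophore unigenes. From sheets in which the study listed unigenes for their rise came 4 of the 6 hepatocyte and 4 of the 7 melanophore unigenes. The sums thus partly restate that choice. The lens unigene given next came from these sheets too. The 2 retina unigenes (0 to 0.4 against 0.06 to 1.04) and the single lens unigene (6.77 to 7.83 against 0 to 1.04) were at or near 0 in some libraries, and the eye is thus hardly represented among the named unigenes.

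More unigenes were lower than higher after 30 h of light. On log2(FPKM + 0.1), 668 of 38864 unigenes fell (1.72%) and 280 rose (0.72%) in long-term exposed against control tadpoles (limma, Benjamini-Hochberg adjusted p under 0.05). At an unadjusted p under 0.05 there were 3702 lower and 2681 higher unigenes. The median log2 difference over all tested unigenes was 0.01, and 49.31% of them had a negative difference. Because pooled tissue was sequenced, fewer cells of a type and less RNA per cell cannot be told apart in any of these differences. The direction of the surplus depended on which unigenes entered the test and on the scale. Among the 147192 unigenes with at least 0.3 FPKM in at least 3 libraries, 588 were lower and 1435 higher, and falls made up 29.1% of all calls in place of 70.5%. With no filter the share of falls was 23.2%, and on untransformed FPKM of the same 38864 unigenes it was 20.4%. A unigene listed at 0 in a single library, control or long-term exposed, cannot be counted among the rises or the falls of the main test. Both counts were also smaller whenever a long-term exposed library was left out, at 136 to 195 lower and 52 to 67 higher.

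**Figure D1:**
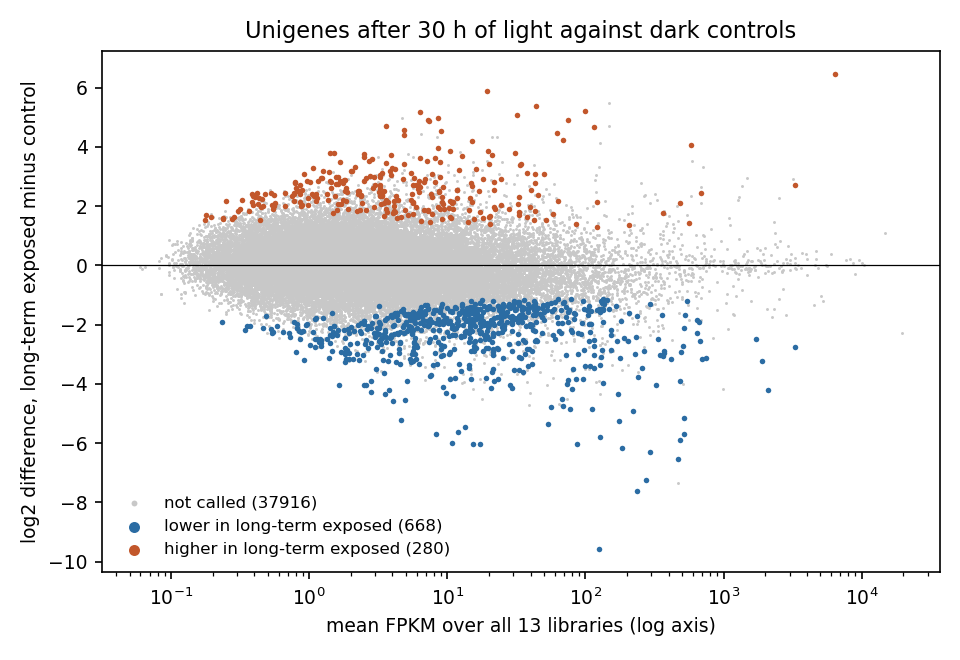
Each point is 1 of the 38864 unigenes tested, with its mean FPKM over all 13 libraries on a log axis and its log2 difference (long-term exposed minus control). The 668 unigenes called lower reach -9.57 and lie mostly to the right, and the 280 called higher reach 6.45.

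Among the unigenes tested, the falls were concentrated among abundant ones. When unigenes were classed by their mean FPKM over all 13 libraries, 85 of the 992 at 100 FPKM and over fell (8.57%), and 11 rose (1.11%). In the class of 10 to 100 FPKM, 315 of 6524 fell (4.83%) and 67 rose (1.03%). In the class of 1 to 10 FPKM, 243 of 21834 fell (1.11%) and 150 rose (0.687%). Below 1 FPKM, the order was turned round, with 25 of 9514 lower (0.263%) and 52 higher (0.547%). The share called lower thus climbed with each class, and it did so too with a pseudocount of 1 (0.231%, 1.03%, 5.30% and 8.97% in order of rising level) and with median-of-ratios scaling (0.541%, 1.91%, 5.15% and 6.44%). Both settings kept the same filter, and the classes were not computed under other filters. The share called higher had no order that held across these settings. It was 1.93% below 1 FPKM and 1.51% at 100 and over with a pseudocount of 1, and 1.28% and 0.716% with median-of-ratios scaling.

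The same tilt was seen without any call, in the same classes and after the same filter. The median log2 difference was 0.14 below 1 FPKM, 0.04 at 1 to 10, -0.25 at 10 to 100 and -0.27 at 100 and over. Every long-term exposed value lay below every control value for 29.4% of the unigenes at 100 FPKM and over, 26.0% at 10 to 100, 10.7% at 1 to 10 and 4.99% below 1, against 12.3% of all tested unigenes. The opposite pattern, every long-term exposed value above every control value, held for 8.27%, 8.29%, 10.1% and 10.6% of these classes, against 9.87% of all tested unigenes. At 100 FPKM and over, the median deviation from the control mean was -0.48, -0.26 and -0.15 on the log2 scale in the 3 long-term exposed libraries, and between -0.07 and 0.08 in the controls, each set against the other 3. The 2 groups of library medians did not overlap in that class. At 10 to 100 FPKM they did, with -0.44, -0.09 and -0.24 after 30 h against -0.25 to 0.31 in controls. The median SE of a log2 difference was 0.55 below 1 FPKM, 0.57 at 1 to 10, 0.46 at 10 to 100 and 0.50 at 100 and over. After 4 h of light, against the same controls, the class medians were -0.12, -0.10, 0.003 and -0.09 in order of rising level.

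**Figure D2:**
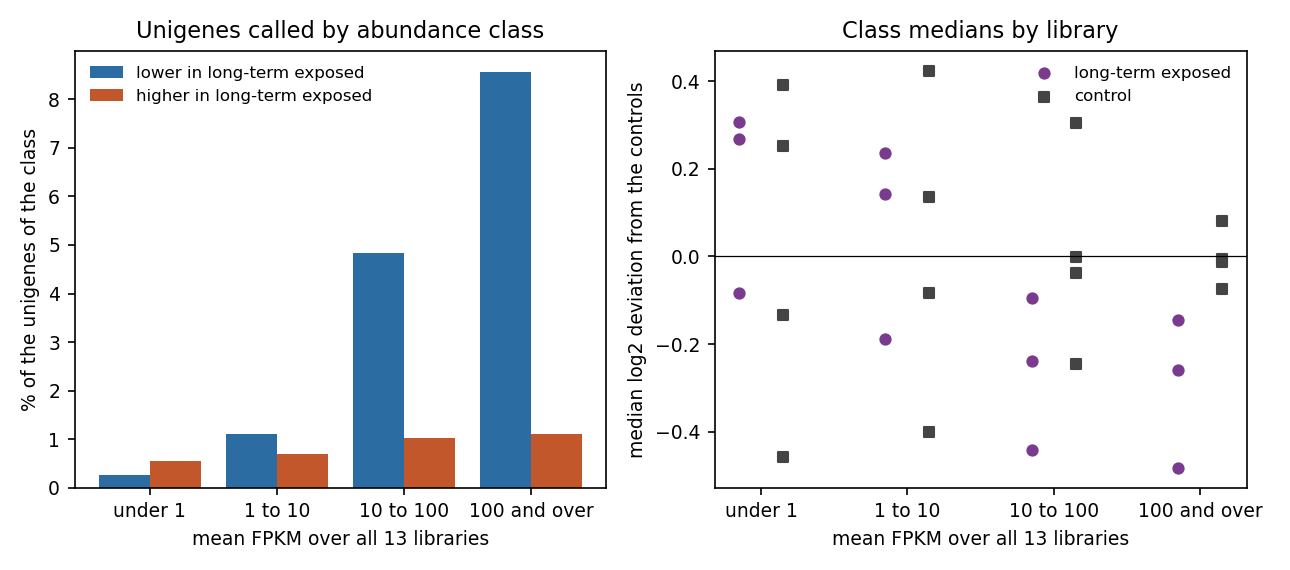
Left, the percentage of unigenes called lower or higher in long-term exposed tadpoles in 4 classes of mean FPKM, with 8.57% lower and 1.11% higher in the top class. Right, the median log2 deviation of each library from the mean of the controls (for a control, of the other 3) in each class (circles, 3 long-term exposed, and squares, 4 controls), where the long-term exposed medians lie below all controls at 100 FPKM and over.

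The 668 falls were large and lay mostly apart from both other groups. Their log2 differences ranged from -1.12 to -9.57 with a median of -2.11. Of these unigenes, 375 fell at least 4-fold (56.1%), 117 at least 8-fold and 45 at least 16-fold. For 584 of them (87.4%), every long-term exposed value was below all 10 other libraries, against 5.48% of all tested unigenes. Having been chosen on the same 3 long-term exposed libraries, they are described by this share and not tested with it. Group means had a median of 3.69 FPKM in long-term exposed and 17.6 FPKM in control tadpoles, and the tadpoles of 4 h had a median of 18.1 FPKM. Set against the same controls, 4 h of light gave a median log2 difference of -0.02 over these 668 unigenes.

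Summed over each library, the unigenes that fell made up 0.836%, 0.892% and 0.992% of all FPKM in long-term exposed tadpoles. In controls they made up 4.43%, 7.19%, 5.44% and 4.49%, and in short-term exposed tadpoles 3.19% to 6.37%. The unigenes that rose made up 7.71%, 3.25% and 3.76% in long-term exposed tadpoles against 0.452%, 0.486%, 0.670% and 0.330% in controls. Since these sets were chosen for their difference, the gap is a description of its size. Long-term exposed replicate 1 had the highest share of the unigenes that rose, and a single unnamed unigene described below held most of it.

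**Figure D3:**
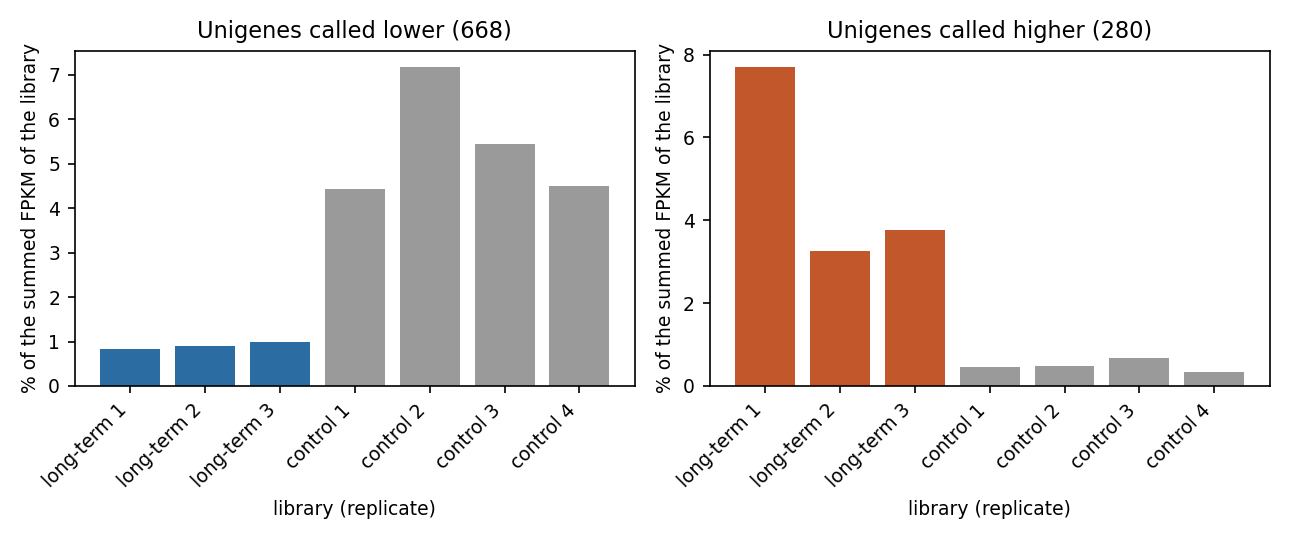
Bars give the percentage of a library's summed FPKM held by the 668 unigenes called lower (left) and the 280 called higher (right), in 3 long-term exposed and 4 control libraries. The fallen unigenes hold under 1% in each long-term exposed library and 4.43% to 7.19% in the controls.

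The most abundant unigenes that fell carry no protein name in the annotation used here. Cluster-29057.102085 had 418.53, 584.11 and 1084.26 FPKM in long-term exposed tadpoles, against 4042.7, 6729.19, 5215.47 and 2594.09 FPKM in controls. Every long-term exposed value was well below every control value, and the log2 difference was -2.77 (SE 0.58, limma, adjusted p = 0.0227). The call was lost without control replicate 2 or 3 or long-term exposed replicate 1 or 2 (adjusted p = 0.0598, 0.0616, 0.109 and 0.0897), with median-of-ratios scaling (0.0607) and on untransformed FPKM (0.899). Cluster-29057.101695 had 45.6, 214.96 and 290.0 FPKM in long-term exposed tadpoles, against 2552.46, 4570.67, 3378.54 and 1210.47 FPKM in controls. It fell by 4.21 on the log2 scale (SE 0.66, limma, adjusted p = 0.00624). It passed whichever single library was left out and missed the threshold on untransformed FPKM (0.223). After 4 h their medians over 6 libraries, 3425 and 2170 FPKM, lay within the range of the controls.

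The steepest fall, picked out after its values were seen, was also of an unnamed unigene. It had 0.07, 0.1 and 0.39 FPKM in long-term exposed tadpoles, against 122.9, 331.13, 173.66 and 198.76 FPKM in controls, a log2 difference of -9.57 (SE 1.07, limma, adjusted p = 0.00188). In the short-term exposed libraries it was between 4.8 and 236.0 FPKM with a median of 168.7. It was 1 of 3 unigenes under 1 FPKM in every long-term exposed library and at 10 FPKM or more in every control. With values this near 0, the fitted difference depends on the added 0.1, and it was not recomputed under the alternatives.

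Of the 668 unigenes that fell, 664 had no name in the tables used, 4 had a name, and 3 had a name that says what the protein is. Among the 280 that rose, 227 had no name and 46 had such a name. This gap does not describe the biology of the falls, because the names came from a part of the annotation and from sheets in which the study listed unigenes for their rise in these same libraries. Of the 129 tested unigenes with an informative name from elsewhere than those sheets, 3 fell and 2 rose, with a median log2 difference of 0.15. Over all tested unigenes, 1.72% fell and 0.72% rose, and these shares also stand beside the counts of list members below. List members at 0 in any library were not tested. Names are best protein hits in other species, mostly *Xenopus*.

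CCT4, a subunit of the ring-shaped chaperonin that folds actin and tubulin, had 25.2, 23.93 and 25.65 FPKM in long-term exposed tadpoles, against 57.9, 51.3, 83.09 and 100.15 FPKM in controls. The long-term exposed values were nearly equal and all below the lowest control. It fell by 1.497 on the log2 scale (SE 0.30, limma, adjusted p = 0.0189). Short-term exposed tadpoles had 85.0 to 128.5 FPKM, all above the long-term exposed values. The call was lost without control replicate 3 or 4 (adjusted p = 0.0602 and 0.0594) and without any of the 3 long-term exposed libraries (0.0742 to 0.0782), and on untransformed FPKM (0.0548).

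The ribosome and translation list had caught CCT4 although it is a chaperonin. Its 2 other tested unigenes that the study had not listed for a rise did not pass the test. A probable 28S rRNA cytosine methyltransferase, had 2.28, 2.17 and 1.9 FPKM against 5.5, 2.92, 5.52 and 6.02 FPKM in controls. The groups did not overlap, and the log2 difference was -1.15 (adjusted p = 0.120, limma). In its class, 1 to 10 FPKM, 10.7% of all tested unigenes had such a gap below the controls. Nucleolar protein 56, a core protein of the particles that methylate ribosomal RNA, had overlapping groups (log2 difference -0.29, adjusted p = 0.897). The translation factor of the list, eIF4A-II, rose and is described further on.

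MYDGF, myeloid-derived growth factor, a secreted protein known in mouse for its role in repair of the heart, had 18.65, 17.23 and 22.04 FPKM in long-term exposed tadpoles, against 40.64, 45.69, 65.33 and 63.49 FPKM in controls. The groups did not overlap. It fell by 1.45 on the log2 scale (SE 0.35, limma, adjusted p = 0.0390), and 4 h of light gave -0.08. This call was the least stable of the named falls. It was lost without any of the 4 control or 3 long-term exposed libraries or without short-term exposed replicate 6, with adjusted p between 0.054 and 0.146, and it held in 11 of 27 alternatives in all.

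CYP2A6, a cytochrome P450 that in human liver oxidises nicotine and coumarin, had 0.67, 1.76 and 17.37 FPKM in long-term exposed tadpoles, against 49.57, 61.95, 67.75 and 34.39 FPKM in controls. Long-term exposed replicate 3 stood well above the other 2 but still below every control. The log2 difference was -4.15 (SE 0.85, limma, adjusted p = 0.0205). Short-term exposed tadpoles ranged from 6.5 to 41.64 FPKM, and a log2 difference to the same controls of -1.32 missed the threshold (adjusted p = 0.656). The call was lost without control replicate 3 (adjusted p = 0.0573) and without long-term exposed replicate 1 or 2 (0.102 and 0.0915), where the difference was as small as -3.18.

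**Figure D4:**
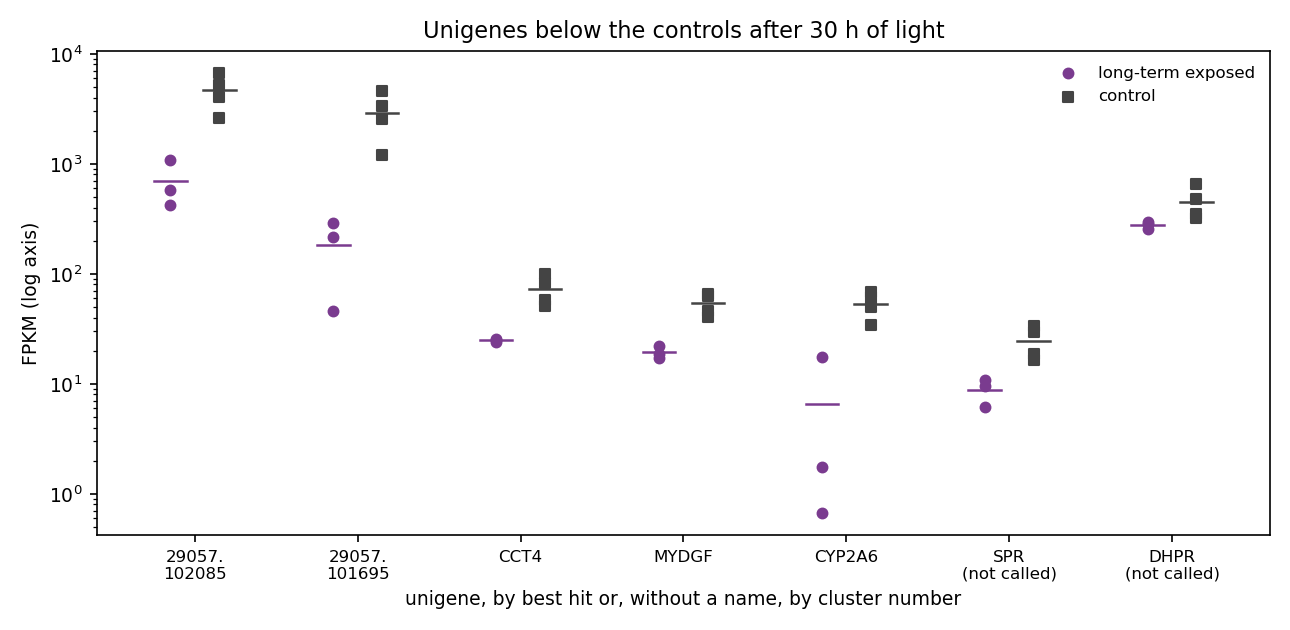
FPKM of 7 unigenes on a log axis in 3 long-term exposed (circles) and 4 control (squares) libraries, with short lines at the group means. All 7 have every long-term exposed value below every control value, a pattern held by 12.3% of all tested unigenes. The 2 pteridine enzymes SPR and DHPR did not pass the test.

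The drug and steroid handling list gave calls in both directions, but the 3 that rose had all been picked for a rise. Of the 4 tested members of that list not picked for a rise, CYP2A6 fell. The sulfotransferase SULT2B1-like, which adds sulfate to cholesterol and related sterols in mammals, had 3.24, 7.88 and 14.63 FPKM after 30 h against 74.45, 22.35, 124.5 and 38.49 FPKM in controls. Its groups did not overlap, but controls spread widely and the log2 difference of -2.86 did not pass the test (adjusted p = 0.121, limma). In its class, 10 to 100 FPKM, 26.0% of all tested unigenes had such a gap below the controls. Nicotinamide N-methyltransferase, a liver methylating enzyme, and a flavin-containing monooxygenase-like unigene had positive differences of 1.44 and 1.10 without passing. Another 3 tested members, from the sheets of rising unigenes, rose. CYP2C18 had 16.4, 13.22 and 9.54 FPKM against 3.33, 3.54, 4.59 and 1.29 FPKM in controls (log2 difference 2.10, adjusted p = 0.0399). CYP2G1-like had 3.79, 3.5 and 3.87 FPKM against 0.6, 1.05, 1.24 and 0.51 FPKM (2.08, adjusted p = 0.0390). Named P450 unigenes of family 2 thus went both ways within the same 3 tadpoles, but the direction of those that rose is no independent evidence. The calls of both that rose were lost without any control or any long-term exposed library (adjusted p from 0.0581 to 0.16), and that of CYP2C18 also without short-term exposed replicate 6 (0.0503).

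Carbohydrate sulfotransferase 7, which sulfates chondroitin chains and was caught by the same list, had 14.17, 14.12 and 16.1 FPKM in long-term exposed tadpoles, against 2.26, 1.92, 2.05 and 2.54 FPKM in controls. It rose by 2.71 on the log2 scale (SE 0.44, limma, adjusted p = 0.00719) and passed the test under all 27 alternatives computed for it.

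Of the 11 tested ubiquitin and proteasome unigenes, 1 rose and none fell, against 0.72% and 1.72% of all tested unigenes. The 1 that rose, LONRF3, had been picked for a rise. The list held 15 unigenes picked for a rise and 22 not picked, and those at 0 in any library were not tested. The 7 not picked for a rise all had negative differences, with a median of -0.65 against 0.01 over all tested unigenes, and the 4 picked for a rise all had positive ones, from 0.90 to 2.72. PSMD13, a subunit of the regulatory cap of the proteasome, had 27.02, 28.66 and 24.86 FPKM in long-term exposed tadpoles, against 43.64, 45.29, 75.78 and 61.07 FPKM in controls (log2 difference -1.03, limma, adjusted p = 0.0921). UBE2L3, a ubiquitin-conjugating enzyme, had 28.11, 37.8 and 30.13 FPKM against 49.75, 60.9, 75.35 and 79.51 FPKM (-1.04, adjusted p = 0.115). Neither overlapped the controls. Tim22, which inserts proteins into the inner mitochondrial membrane, was likewise separate, at 6.07, 5.61 and 4.87 FPKM against 7.91, 11.83, 11.22 and 13.24 FPKM (-0.97, adjusted p = 0.116). Such a gap below the controls held for 26.0% of all tested unigenes at 10 to 100 FPKM, the class of PSMD13, UBE2L3 and Tim22. LONRF3, a RING finger protein of the same list that came from the sheets of rising unigenes, rose by 2.72 on the log2 scale, at 4.42, 11.03 and 9.33 FPKM against 1.12, 1.05, 0.54 and 2.09 FPKM in controls (adjusted p = 0.0275). Its call was lost without control replicate 1, 2 or 3 or any long-term exposed library (0.0565 to 0.127). The other 3 that were picked for a rise, ubiquitin thiolesterase 3, UHRF2 and FBXO25, had every long-term exposed value above every control and did not pass (log2 differences 0.90, 1.64 and 2.03, adjusted p = 0.199, 0.139 and 0.138). A gap above the controls held for 10.1% of all tested unigenes at 1 to 10 FPKM, the class of these 3.

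Melanin genes stood higher after 30 h. Tyrosinase (TYR), the enzyme that starts melanin synthesis, had 1.25, 2.42 and 2.76 FPKM in long-term exposed tadpoles, against 0.3, 0.19, 0.18 and 0.52 FPKM in controls. The groups were well apart, and TYR rose by 2.50 on the log2 scale (SE 0.49, limma, adjusted p = 0.0167). PMEL, which forms the fibrils of the melanosome, had 7.71, 18.79 and 18.79 FPKM against 2.53, 2.15, 0.89 and 4.12 FPKM, a rise of 2.66 (SE 0.59, adjusted p = 0.0283). Long-term exposed replicate 1 was the lowest of the 3 for both. TYR came from the sheets of rising unigenes. The PMEL unigene did not, but the study reports PMEL among the melanocyte markers whose transcription went up with light in these same libraries.

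DCT, dopachrome tautomerase, the next enzyme of the melanin pathway, had 1.87, 3.93 and 5.08 FPKM against 0.45, 0.43, 0.1 and 0.88 FPKM in controls without overlap, and its log2 difference of 2.82 did not pass the test (SE 0.79, limma, adjusted p = 0.0728). In its class, 1 to 10 FPKM, 10.1% of all tested unigenes had such a gap above the controls. DCT passed under 6 of 26 alternatives, with a pseudocount of 1 (adjusted p = 0.0273), median-of-ratios scaling (0.0416), the 7 compared libraries alone (0.0277), untransformed FPKM (0.0398), array weights (0.00879) and when short-term exposed replicate 2 was left out (0.0393). MLANA, a melanosome protein, overlapped the controls (3.81, 9.72 and 11.75 against 3.16, 3.06, 1.63 and 4.17 FPKM, log2 difference 1.38, adjusted p = 0.159), and passed with array weights alone (0.0226). Of the 4 tested melanin unigenes, 2 thus rose, and all 4 differences were positive. The list held 6 unigenes picked for a rise and 7 not picked, and those at 0 in any library were not tested. TYRP1 (tyrosinase-related protein 1), picked for a rise, was at 0 in control replicate 3 and so outside the test. It had 7.57, 14.18 and 13.98 FPKM in long-term exposed tadpoles, against 2.82, 2.26, 0.0 and 3.49 FPKM in controls. TYR, DCT and MLANA came from the sheets of rising unigenes, and the study reports PMEL as rising too. These directions are thus no independent evidence. The TYR call was lost without control replicate 3 or long-term exposed replicate 2 or 3 (adjusted p = 0.0542, 0.0747 and 0.0847), and the PMEL call without control replicate 1, 2 or 3 or any long-term exposed library (0.053 to 0.126). With no filter neither passed (0.0723 for TYR and 0.0679 for PMEL), nor did TYR with at least 0.3 FPKM in at least 3 libraries (0.0617).

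Enzymes of the yellow and red pigments did not pass the test in either direction. Sepiapterin reductase (SPR), which makes tetrahydrobiopterin and acts in pteridine synthesis, had 9.49, 10.88 and 6.2 FPKM in long-term exposed tadpoles, against 18.78, 16.4, 33.43 and 29.32 FPKM in controls. The groups did not overlap, and the log2 difference of -1.43 missed the threshold (SE 0.40, limma, adjusted p = 0.0692). SPR was called lower under 3 of 27 alternatives, with at least 1 FPKM in all 13 libraries (adjusted p = 0.0398), with the 7 compared libraries alone (0.0447) and with array weights (0.0093). Dihydropteridine reductase (DHPR), which recycles biopterin, had 294.11, 284.5 and 252.94 FPKM against 351.38, 482.82, 652.54 and 321.7 FPKM, also without overlap, at a log2 difference of -0.65 (adjusted p = 0.666). Such a gap below the controls held for 29.4% of all tested unigenes at 100 FPKM and over, the class of DHPR. It held for 26.0% at 10 to 100 FPKM, the class of SPR. The short-term exposed libraries spread from 81.88 to 582.1 FPKM for DHPR and share its estimate of error.

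The 2 xanthine dehydrogenase unigenes (log2 differences 0.53 and -0.36), enzymes of purine breakdown that also act on pteridines, overlapped the controls. So did the 2 unigenes of BCO2, which cleaves carotenoids (1.37 and -0.46). For 1 BCO2 unigene the controls themselves ranged from 1.2 to 36.35 FPKM. Melanophilin X5, an adaptor in granule transport, was under 1 FPKM in all 7 libraries. In all, 0 of the 6 tested pteridine and carotenoid unigenes passed, where 0.72% of all tested unigenes rose and 1.72% fell. Of the 6 differences, 4 were negative, and the median was -0.41.

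Liver proteins were among the largest rises. Albumin 1, the main plasma protein, had 8060.3, 9352.16 and 11981.82 FPKM in long-term exposed tadpoles, against 1283.02, 2175.9, 2056.85 and 852.25 FPKM in controls. It rose by 2.70 on the log2 scale (SE 0.54, limma, adjusted p = 0.0183), and short-term exposed tadpoles were at 538.3 to 2492 FPKM. The 2 fibrinogen alpha unigenes, which encode a chain of the clotting protein, were low in every control. The first, with the hit fibrinogen alpha chain, had 41.17, 17.59 and 19.13 FPKM against 0.98, 0.28, 1.19 and 0.67 FPKM (log2 difference 4.92, SE 1.06, adjusted p = 0.0257). The second, a precursor, had 20.37, 10.46 and 11.63 FPKM against 0.52, 0.38, 0.78 and 0.31 FPKM (4.57, SE 0.67, adjusted p = 0.00476).

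A2ML1, a broad protease inhibitor related to alpha-2-macroglobulin, had 5.2, 5.29 and 6.01 FPKM in long-term exposed tadpoles, against 0.38, 0.48, 0.14 and 0.31 FPKM in controls (3.78, SE 0.53, limma, adjusted p = 0.00418). The liver list caught A2ML1 by its name, and the tissue it came from was not tested. All 4 of these liver-list unigenes came from the sheets of rising unigenes, and all 4 rose. Of the 4 tested that were not picked for a rise, none passed, and all 4 differences were positive with a median of 1.43. Both pentraxin unigenes among them overlapped the controls. Macrophage stimulating 1, a plasma growth factor of the liver, had 99.44, 59.36 and 26.91 FPKM against 18.62, 13.81, 22.07 and 16.61 FPKM (1.62, adjusted p = 0.0923). The hepatocyte growth factor-like unigene ranked the long-term exposed libraries alike, at 41.16, 30.34 and 12.88 FPKM against 9.46, 3.03, 11.94 and 4.88 FPKM in controls. Whether these unigenes come from the same gene was not tested. The fibrinogen precursor and A2ML1 kept their calls under all 26 alternatives, while albumin lost its call without control replicate 4 or any long-term exposed library (0.0603 to 0.0849), with median-of-ratios scaling (0.0562) and on untransformed FPKM (0.764). The other fibrinogen unigene lost it without control replicate 2, 3 or 4 or any long-term exposed library (0.0522 to 0.112).

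The summed hepatocyte markers given above moved with these rises and are led by albumin itself, and whether the tubes held unequal amounts of liver was not tested. OIT3, a secreted protein made mainly by the liver in mammals, had 66.91, 50.86 and 46.49 FPKM against 13.16, 15.02, 16.22 and 9.49 FPKM in controls (log2 difference 2.03, limma, adjusted p = 0.0307). This unigene came from the sheets of rising unigenes. CYP2A6, named above as a liver enzyme in human, fell in the same libraries, and the tissue its reads came from was not tested.

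Lysosomal proteases rose by smaller factors from high levels. Cathepsin L1-like had 482.99, 348.45 and 310.58 FPKM in long-term exposed tadpoles, against 134.96, 146.35, 162.97 and 143.89 FPKM in controls (log2 difference 1.35, SE 0.28, limma, adjusted p = 0.0227). Cathepsin B had 226.97, 265.63 and 147.63 FPKM against 70.6, 81.3, 80.27 and 108.43 FPKM (1.30, SE 0.29, adjusted p = 0.0286). Cathepsin K, the collagen-cleaving protease of bone-resorbing cells, had 44.54, 48.57 and 45.39 FPKM against 12.09, 6.26, 18.07 and 16.75 FPKM (1.90, adjusted p = 0.0361). None of the 3 overlapped the controls, and all 3 came from the sheets of rising unigenes. A gap above the controls held for 8.27% of all tested unigenes at 100 FPKM and over, the class of cathepsins L1-like and B. It held for 8.29% at 10 to 100 FPKM, the class of cathepsin K.

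PLBD2, a phospholipase B-like lysosomal protein, had 10.7, 12.79 and 10.97 FPKM in long-term exposed tadpoles, against 4.04, 3.8, 3.89 and 4.13 FPKM in controls (1.51, adjusted p = 0.0240, limma). In all, 5 of the 7 tested lysosomal unigenes picked for a rise rose. The 1 tested that was not picked, hexosaminidase D, was at 0.57, 1.31 and 1.72 FPKM against 2.47, 2.07, 3.02 and 3.01 FPKM (-1.18, adjusted p = 0.238). Calls were lost without any of the 4 control or 3 long-term exposed libraries for cathepsin L1-like, cathepsin K, PLBD2 and OIT3 (adjusted p from 0.0523 to 0.132). That of cathepsin B was lost without control replicate 1, 2 or 3 or long-term exposed replicate 1 or 2 (0.0645 to 0.142).

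**Figure D5:**
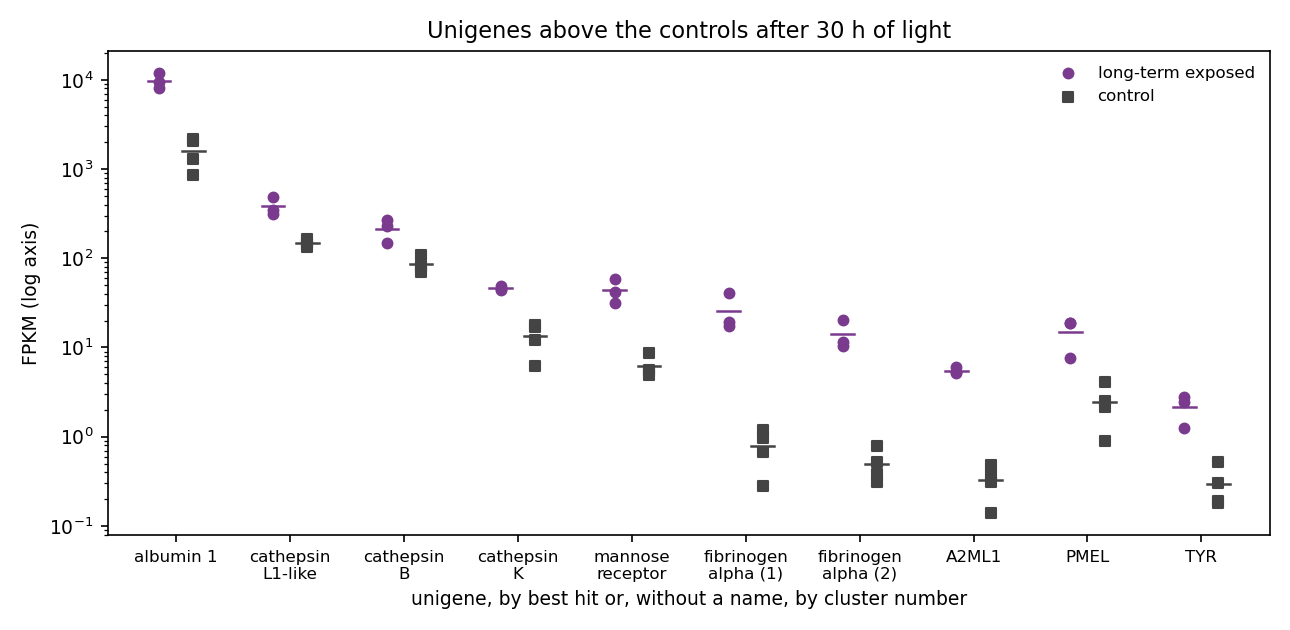
FPKM of 10 unigenes called higher, on a log axis, in 3 long-term exposed (circles) and 4 control (squares) libraries, with short lines at the group means. Every long-term exposed value lies above every control value, from TYR at 1.25 to 2.76 FPKM up to albumin 1 at 8060.3 to 11981.82 FPKM. That pattern was held by 9.87% of all tested unigenes.

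Several unigenes named for immune cells rose, all of them from the sheets of rising unigenes. VSIG4, a complement receptor of resident macrophages in mammals, had 26.56, 25.63 and 15.28 FPKM in long-term exposed tadpoles, against 1.06, 1.11, 3.18 and 2.83 FPKM in controls (log2 difference 3.52, SE 0.58, limma, adjusted p = 0.00745). The macrophage mannose receptor, which takes up glycoproteins, had 57.9, 41.47 and 31.27 FPKM against 5.57, 5.43, 8.62 and 4.9 FPKM (2.80, adjusted p = 0.0260). CD4, a coreceptor of helper T cells, had 15.61, 12.88 and 14.45 FPKM against 4.5, 2.98, 3.1 and 5.31 FPKM (1.86, adjusted p = 0.0360).

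Summed over 5 leukocyte and macrophage markers, FPKM was 82.25 to 107.2 in long-term exposed tadpoles and 13.09 to 28.41 in controls. The mannose receptor and cathepsin K, already given above as rises, make up most of these sums. Of the 5 markers, 4 came from the sheets of rising unigenes, none was at 0 in all controls, and the part of leukocyte number in the rises was not tested. The marker that was not picked for a rise, PTPRC (CD45, the phosphatase common to white blood cells), was outside the test and had 1.47, 0.0 and 0.57 FPKM in long-term exposed tadpoles, against 2.03, 0.43, 0.81 and 0.61 FPKM in controls. Its groups overlapped. The 4 tested immune unigenes not picked for a rise gave no call (median -0.42, 3 of 4 negative). VSIG4 kept its call whichever single library was left out. That of the mannose receptor was lost without control replicate 1, 2 or 4 or any long-term exposed library (adjusted p 0.0572 to 0.118), and that of CD4 without any control or long-term exposed library (0.0594 to 0.136).

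Several matrix and vessel genes rose, and all but connective tissue growth factor-like came from the sheets of rising unigenes. Collagen XVI alpha 1, a fibril-associated collagen, had 13.97, 18.58 and 16.79 FPKM in long-term exposed tadpoles, against 3.67, 0.83, 2.34 and 1.36 FPKM in controls (log2 difference 3.13, limma, adjusted p = 0.0261). Proteoglycan 4, the joint lubricant, had 7.69, 9.77 and 11.73 FPKM against 1.5, 0.89, 1.25 and 0.94 FPKM (2.99, adjusted p = 0.0260). WISP2, a secreted matrix-associated protein of the CCN family, had 8.19, 9.27 and 14.56 FPKM against 1.68, 0.51, 1.35 and 1.83 FPKM (2.98, adjusted p = 0.0310). None of the 3 overlapped the controls. A gap above the controls held for 10.1% of all tested unigenes at 1 to 10 FPKM, their class.

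Connective tissue growth factor-like, of the same CCN family and not listed by the study as rising, had 37.92, 50.79 and 29.28 FPKM in long-term exposed tadpoles, against 16.05, 13.48, 10.03 and 11.36 FPKM in controls (1.61, SE 0.39, limma, adjusted p = 0.0404). KDR-like, a receptor for vascular endothelial growth factor, had 6.45, 4.16 and 5.09 FPKM against 0.76, 0.48, 0.65 and 1.36 FPKM (2.61, adjusted p = 0.0408). GPR182, a receptor of endothelial cells, had 5.98, 3.28 and 4.5 FPKM against 0.24, 0.3, 1.16 and 0.53 FPKM (2.99, adjusted p = 0.0336). The calls of these 3 and of collagen XVI, proteoglycan 4 and WISP2 were each lost without any long-term exposed library and without most controls, with adjusted p between 0.0509 and 0.173. The exceptions among controls were replicate 1 for collagen XVI and proteoglycan 4 and replicate 3 for GPR182. The calls of connective tissue growth factor-like and KDR-like were lost without short-term exposed replicate 6 too, and that of the first also without replicate 2.

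Of 78 growth factor and receptor unigenes that the study had not listed for a rise, 21 were tested. Of these 21, 1 rose and 1 fell, MYDGF, against 0.72% and 1.72% of all tested unigenes. Only 6 of the 21 differences were negative, and their median was 0.66, against 0.01 over all tested unigenes. Of another 67 that it had listed, 1 was tested, KDR-like, and it rose. Members at 0 in any library were outside the test, among them the EGFR and PDGFRA unigenes given further on. FGFR4, a fibroblast growth factor receptor, was lower in 2 unigenes without passing. The first had 2.27, 4.96 and 9.81 FPKM in long-term exposed tadpoles, against 16.72, 18.11, 26.58 and 38.48 FPKM in controls, without overlap (log2 difference -2.27, SE 0.65, limma, adjusted p = 0.0819). A gap below the controls held for 26.0% of all tested unigenes at 10 to 100 FPKM, the class of the first. The second overlapped by 1 value (-2.01, adjusted p = 0.130). Short-term exposed tadpoles were also low for the first, with a median of 5.74 FPKM and a log2 difference of -1.71 that did not pass (adjusted p = 0.336). Copies and isoforms of a receptor can share reads, so the split between the 2 unigenes is uncertain.

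Muscle and translation gave single rises. CPT1B, which brings fatty acids into muscle mitochondria, had 17.06, 17.47 and 25.14 FPKM in long-term exposed tadpoles, against 4.2, 3.26, 2.74 and 4.43 FPKM in controls (log2 difference 2.41, limma, adjusted p = 0.0312). The 7 tested sarcomere and muscle unigenes gave no call, all 7 differences were positive, and the summed skeletal muscle markers were 21.32 to 45.65 FPKM against 10.79 to 19.1 FPKM in controls. From the sheets of rising unigenes came 2 of these 7 tested unigenes and 2 of the 7 markers. The part of unequal muscle in the tubes was not tested.

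The RNA helicase eIF4A-II of translation initiation had 113.8, 136.78 and 186.39 FPKM in long-term exposed tadpoles, against 44.93, 42.45, 11.84 and 45.02 FPKM in controls (2.16, SE 0.45, limma, adjusted p = 0.0218). The RNA-binding protein hnRNP D-like had 12.94, 12.84 and 23.14 FPKM against 2.42, 2.92, 2.97 and 1.4 FPKM (2.70, adjusted p = 0.0260). All 3 of these unigenes came from the sheets of rising unigenes. Their calls were lost without any long-term exposed library (0.0611 to 0.136), and that of CPT1B also without any control (0.0574 to 0.0872) and that of hnRNP D-like without control replicate 1, 3 or 4 (0.0537 to 0.078).

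The largest rise of all tested unigenes was of an unnamed transcript. Cluster-29057.124223 had 56677.6, 10165.03 and 12238.74 FPKM in long-term exposed tadpoles, against 189.71, 109.16, 1467.16 and 76.25 FPKM in controls. It rose by 6.45 on the log2 scale (SE 0.97, limma, adjusted p = 0.00576), kept its call whichever single library was left out, and lost it on untransformed FPKM (0.982). Long-term exposed replicate 1 was far above the other 2, and control replicate 3 far above the other 3 controls. Cluster-29057.101371, also without a name, had 3192.16, 1601.63 and 1241.42 FPKM against 483.5, 372.64, 398.69 and 189.51 FPKM (2.44, SE 0.58, adjusted p = 0.0378), and its call was lost without any control or long-term exposed library (0.0554 to 0.167).

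As a whole, the 280 rises had log2 differences from 1.30 to 6.45 with a median of 2.42, and 209 were at least 4-fold (74.6%). They came from lower levels than the falls. Group means had a median of 10.6 FPKM in long-term exposed and 1.59 FPKM in control tadpoles, and the tadpoles of 4 h had a median of 2.20 FPKM. Of these unigenes, 27.9% averaged 10 FPKM or more, against 59.9% of those that fell. For 224 (80.0%), every long-term exposed value was above all 10 other libraries, against 4.91% of all tested unigenes. Against the same controls, 4 h of light gave a median log2 difference of 0.18 over these 280 unigenes.

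Other alternatives, such as a looser filter or another scaling, also ended calls. Of 26 or 27 alternatives each, the named rises passed in 22 for eIF4A-II, 20 for TYR and albumin 1, 19 for cathepsin B, 18 for collagen XVI and hnRNP D-like, 17 for the first fibrinogen unigene, PMEL, proteoglycan 4 and LONRF3, and 16 for the mannose receptor, cathepsin L1-like, CPT1B and PLBD2. They passed in 15 for GPR182 and OIT3, 14 for WISP2, cathepsin K and CD4, 13 for CYP2C18 and CYP2G1-like, 12 for connective tissue growth factor-like and 11 for KDR-like. None changed direction.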

How the data were processed

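RNA of 13 single tadpoles was sequenced. The authors removed adapter, poly-N and low-quality reads, assembled the clean reads of all libraries with Trinity and deposited FPKM values rounded to 2 decimals. As to the aligner, it was not given in the sources used here; the methods and labels name different HiSeq models. No counts were recovered, and an exact 0 may be a failed estimate.

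Groups came from the sample titles. FPKM was taken to log2(FPKM + 0.1), which understates changes of low unigenes, and unigenes above 0 in all 13 libraries were fitted with limma 3.58.1 in R 4.3.3 (3 groups, mean-variance trend, Benjamini-Hochberg over all 38864). The code was tested on simulated data. Python 3.11.15 and pandas 2.3.3 made the tables and matplotlib 3.10.9 the figures.

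Named were the study's tested pigment entries, the 15 largest and the 5 most abundant named calls per direction, up to 4 calls per gene list and direction, and 2 unnamed unigenes per direction. Unigenes near the threshold were added after their values were seen. Names come from 1268 annotation entries and the study's sheets of rising unigenes, whose direction is no independent evidence. Members and lists were chosen with earlier results of these data known. Alternatives were other pseudocounts, filters, scaling, weights, scale and samples, the replicate block and leaving out libraries. Copies and isoforms can share reads.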

Additional observations from a re-analysis of the deposited data

Results flagged for a closer look

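Some of the unigenes named by rule differed between the durations of light themselves. Their limma adjusted p was under 0.05 for long-term minus short-term exposed, and differences are given on the log2 scale. Those lower after 30 h than after 4 h were the unnamed Cluster-29057.101695 (-3.92) and Cluster-29057.102085 (-2.24), CYP2A6 (-2.83), CCT4 (-2.02), SPR (-1.42) and MYDGF (-1.38). Those higher among melanin genes and unigenes described with the liver proteins were TYR (1.99), DCT (2.67), PMEL (1.80), albumin 1 (3.30), fibrinogen alpha (4.33) and its precursor (2.50), A2ML1 (3.89) and OIT3 (1.86). Among matrix, vessel and growth factor genes they were collagen XVI (3.20), proteoglycan 4 (3.87), WISP2 (3.92), connective tissue growth factor-like (1.89), KDR-like (2.80) and GPR182 (2.68). Among immune and lysosomal genes they were VSIG4 (3.09), the macrophage mannose receptor (3.07), CD4 (1.40), cathepsin L1-like (1.22), cathepsin B (1.10), cathepsin K (1.66) and PLBD2 (1.06). The others were LONRF3 (2.47), carbohydrate sulfotransferase 7 (2.03), hnRNP D-like (2.37), eIF4A-II (1.85), CYP2C18 (1.92), CYP2G1-like (1.83), CPT1B (2.52) and the unnamed Cluster-29057.124223 (6.46) and Cluster-29057.101371 (3.30). Unigenes described above but not named by rule are not in these lists. Among them, UBE2L3 (-1.21), Tim22 (-1.15) and PSMD13 (-1.07) were also lower after 30 h than after 4 h at that threshold. The hepatocyte growth factor-like unigene (2.39) and UHRF2 (1.72) were higher.

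Control replicate 3 stood apart from the other 3 controls for eIF4A-II, at 11.84 FPKM, and for Cluster-29057.124223, at 1467.16 FPKM. Both were flagged by Dixon's test on 4 FPKM values, not on the log2 scale. Chance gives such a gap in about 1 in 20 groups of normally distributed values, which FPKM need not be.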

How the results depend on the processing

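The counts of falls and rises moved with the processing, while none of the 29 rises and 5 falls named by rule changed direction (the steepest fall was not recomputed). Rises numbered 601 with a pseudocount of 1, 1435 with at least 0.3 FPKM in at least 3 libraries, 1601 with no filter, 474 with median-of-ratios scaling, 751 with the 7 compared libraries alone, 1619 with array weights and 914 on untransformed FPKM. Falls numbered 391 among unigenes above 0 in the 7 libraries, 1315 with these 7 alone, 2373 with array weights and 234 on untransformed FPKM. Without short-term and long-term exposed replicate 1 together, there were 149 falls and 53 rises. Leaving out 1 library gave 136 to 999 falls and 52 to 487 rises, with fewest calls without a long-term exposed library and most without short-term exposed replicate 5. With the filter set on the 12 libraries other than short-term exposed replicate 5 and all 13 libraries fitted, there were 540 falls and 232 rises. That filter was chosen after seeing the data. The replicate number as a block left 218 falls and 104 rises, of which 205 and 94 were shared with the fit without it. Same-numbered libraries did not deviate together (correlations -0.0825, -0.0625 and -0.0823), so the samples share only a number. The class shares called are given above, and class medians moved by less than 1 SD of the long-term exposed libraries under a pseudocount of 1 and median-of-ratios scaling. Of the named unigenes' values under alternatives, 841 kept their side of the threshold, 292 lost a call and 10 gained one. With 3 and 4 tadpoles and no counts, small differences of low unigenes could not be detected.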

Other observations

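Unigenes listed at 0 throughout a group were outside the test. At 0 in all 3 long-term exposed libraries and above 0 in all 4 controls were 792 unigenes, with a median of 0.48 FPKM where present and 201 at a mean of 1 FPKM or more. The opposite pattern was held by 3040 unigenes, with a median of 0.497 FPKM and 840 at 1 FPKM or more. The long-term exposed libraries listed the most unigenes in all, 140196 to 147363 above 0 against 112990 to 134725 in controls, and the part of this in the second, larger set was not tested.

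The single named unigene of the first set was a transmembrane protein 8B-like, listed at 0 in the long-term exposed libraries and at 1.0, 0.4, 0.76 and 0.8 FPKM in controls. In the second set, 265 unigenes had informative names, and 4 of these did not come from the sheets the study filled with rising unigenes. All 4 were listed at 0 in every control. The study itself reports light-induced transcription of MITF and of EGF, PDGF and FGF related genes in these libraries. PDGFRA, a platelet-derived growth factor receptor, had 2.12, 0.89 and 1.15 FPKM after 30 h. EGFR, the epidermal growth factor receptor, had 2.16, 1.94 and 1.18 FPKM. A unigene of MITF, the transcription factor that directs melanophore development, had 0.45, 0.35 and 0.34 FPKM. A variant of FGFR4 had 1.13, 0.13 and 0.06 FPKM, whereas both tested FGFR4 unigenes had negative differences.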
